A study of Mus musculus with 18 samples.

Results

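Keratins are the intermediate filament proteins of epithelial cells, and 10 of them were followed through 3 cell populations of the mouse mammary gland: Krt5, Krt14, Krt15, Krt17, Krt7, Krt8, Krt18, Krt19, Krt23 and Krt6a. They were chosen by symbol as the keratins used to tell the basal from the luminal layer of the gland. All 10 were found among the 52489 genes of the count table that carry an annotated symbol, which hold 54 keratin genes in all, and all 10 passed the filter on low counts. Of the 10, 6 are type I keratins (Krt14, Krt15, Krt17, Krt18, Krt19 and Krt23) and 4 are type II keratins (Krt5, Krt6a, Krt7 and Krt8).

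The libraries came from 6 nulliparous mice aged 12 weeks, all of genotype MMTV-Cre and untreated. Cells of the digested glands were sorted on EpCAM, CD49f and CD61 after staining for lineage antigens (Ter119, CD45 and CD31), and each of 6 sample numbers gave 1 RNA library of each of 3 sorted populations. Hormone-sensing luminal cells (HSL, or mature luminal cells) had low CD49f and lacked CD61, alveolar progenitors (AP, or luminal progenitors) had low CD49f and carried CD61, and basal cells had high CD49f and carried CD61. All 18 libraries carry the Cre transgene, which is driven by the promoter of a mammary tumour virus that is active in mammary epithelium, so no library shows keratin levels without it.

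A keratin filament is built from pairs of 1 type I (acidic) and 1 type II (basic) protein, so an epithelial cell needs genes of both types. In the mammary gland Krt5 and Krt14 are the standard pair of the outer, contractile basal layer, while Krt8 and Krt18 are the pair of simple epithelia and of the luminal layer, where Krt7 and Krt19 are made as well. Krt15 and Krt17 are known from basal cells of stratified epithelia and hair follicles, Krt6a from hair follicles and from activated or wounded epidermis, and Krt23 is a less studied type I keratin of simple epithelia.

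Start regions of 4 members are shown because they stand for the opposite patterns in the data, Krt5 and Krt23 as keratins highest in basal cells, and Krt8 and Krt18 as the luminal pair. Each runs 5′ to 3′ from 250 bases before to 50 bases after the RefSeq start of the gene (build GRCm38.p6), in lower case with searched motifs in capitals. Krt5 lies at chr15:101712856-101713155 on the minus strand, Krt23 at chr11:99493071-99493370 on the minus strand, Krt8 at chr15:102004293-102004592 on the minus strand and Krt18 at chr15:102027966-102028265 on the plus strand.
Krt5: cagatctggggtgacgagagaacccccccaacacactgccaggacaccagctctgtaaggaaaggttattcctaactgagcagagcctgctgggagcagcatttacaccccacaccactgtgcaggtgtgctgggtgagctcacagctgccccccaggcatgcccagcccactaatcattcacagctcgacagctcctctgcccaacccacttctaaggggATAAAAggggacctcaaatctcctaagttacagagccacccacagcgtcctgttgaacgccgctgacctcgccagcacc
Krt23: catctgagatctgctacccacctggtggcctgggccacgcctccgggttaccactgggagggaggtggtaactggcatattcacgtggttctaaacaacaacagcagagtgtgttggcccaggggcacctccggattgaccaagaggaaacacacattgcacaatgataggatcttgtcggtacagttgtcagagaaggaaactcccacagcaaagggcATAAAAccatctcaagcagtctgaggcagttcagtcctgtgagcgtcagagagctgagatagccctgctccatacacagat
Krt8: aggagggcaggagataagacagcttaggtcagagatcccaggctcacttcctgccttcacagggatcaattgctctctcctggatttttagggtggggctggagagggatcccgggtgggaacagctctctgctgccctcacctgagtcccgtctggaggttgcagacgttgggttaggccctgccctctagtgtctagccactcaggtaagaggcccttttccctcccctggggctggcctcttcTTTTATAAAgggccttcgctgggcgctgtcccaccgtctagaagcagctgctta
Krt18: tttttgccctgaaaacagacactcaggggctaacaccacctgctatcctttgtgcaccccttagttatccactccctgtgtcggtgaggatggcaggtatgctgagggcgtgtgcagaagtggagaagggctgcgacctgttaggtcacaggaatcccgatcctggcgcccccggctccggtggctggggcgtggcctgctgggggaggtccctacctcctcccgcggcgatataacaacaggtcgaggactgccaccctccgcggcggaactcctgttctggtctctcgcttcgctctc

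Motifs were searched on both strands: TATAAA as a TATA box, its variant form ATAAAA, which can overlap it, then the CCAAT box (CCAAT), the core bound by Sp1 factors (GGGCGG) and the site of AP-1 factors (TGACTCA). In the Krt5 window ATAAAA began 29 bases before the start, and in the Krt23 window 31 bases before it. The Krt8 window held TATAAA on both strands and ATAAAA on the minus strand within 1 overlapping run of letters that began 4 bases before the RefSeq start. This start is 140 bases from the start in GENCODE M21, and the distance was 7 bases for Krt5, 17 for Krt23 and 36 for Krt18. None of the 5 motifs was in the Krt18 window. Over all 32851 mouse promoter windows of the same length, TATAAA was in 13.6%, ATAAAA in 18.5%, CCAAT in 37.4%, GGGCGG in 35.7% and TGACTCA in 5.2%. The RefSeq table matched 6 of the 10 members.

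Total gene counts per library lay between 26516293 and 52404937 in HSL, between 37391691 and 62505465 in AP, and between 29899462 and 91095830 in basal cells. Levels are given as CPM, that is counts scaled to a library of 1e+06 counts, scaled between libraries with TMM factors. All 12 basal markers tested (Acta2, Myh11, Trp63 and others) were called lower in HSL and in AP than in basal libraries, 11 of 12 hormone-sensing markers were called higher in HSL than in AP, and 10 of 11 alveolar progenitor markers were called lower in HSL than in AP. Markers of other cell types were present too. The 10 fibroblast markers summed to 45.1 to 118 CPM in HSL, 653 to 1656 CPM in AP and 1130 to 2039 CPM in basal libraries. In the same order, the 10 endothelial markers summed to 25.2 to 75.6, 43.0 to 134 and 125 to 354 CPM. The 8 pericyte markers summed to 82.8 to 160.1, 123 to 222 and 138 to 252 CPM. None of these markers was at 0. Most of the pericyte sum in HSL and AP was Notch3, at a mean of 103.54 and 114.93 CPM, beside median sums of 109.51 and 147.09 CPM. Notch3 was called higher in both than in basal libraries, while 7 pericyte markers in HSL and 6 in AP were called lower. The luminal pericyte sums thus rest mainly on 1 gene. The 3 libraries of sample 1 stood apart from the others on the third principal component of all genes, at 76.1 to 90.9, against −54.8 to 19.5 for the other 15. Values of members that these libraries moved are therefore also given without sample 1.

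The 10 keratins fell into 4 patterns. Krt5, Krt14, Krt15 and Krt17 were at 666 to 9748 CPM in every basal library and at 1.28 to 35.8 CPM in every HSL or AP library. Krt7, Krt8, Krt18 and Krt19 were highest in HSL, intermediate in AP and lowest in basal cells by their means. Krt23 had the opposite order, and Krt6a was a minor luminal keratin with the widest spread of all. The plot of keratin levels shows each library.

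**Figure D1:**
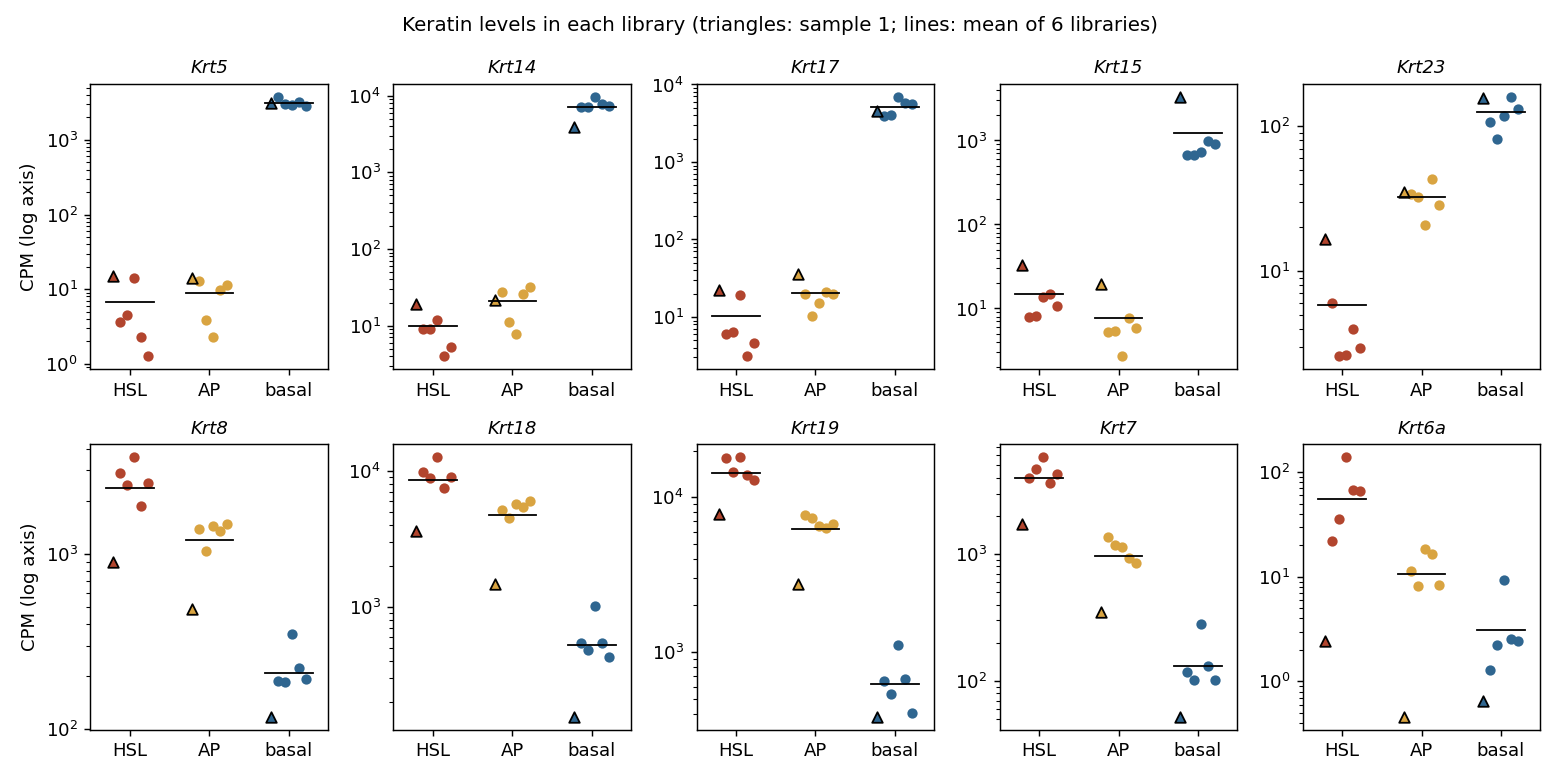
CPM of each keratin (log axis) in the HSL, AP and basal libraries, 6 each, with triangles for sample 1 and lines for the mean. The 4 keratins Krt5, Krt14, Krt17 and Krt15 are separated by more than a factor of 10 between basal libraries and all others, and in sample 1 the luminal keratins are the lowest of each population.

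Genes were compared with edgeR's quasi-likelihood test over 16471 genes and called at a Benjamini-Hochberg adjusted p under 0.05, and log2 fold changes are given with their standard error, with a plus sign for higher levels in the population named first. Between HSL and AP, 4 members were called higher and 2 lower, and 4 were not called. Of all genes 39.9% were called in this comparison, 19.8% higher and 20.1% lower. This model does not pair the libraries of a sample. With the sample number as a block, 9 members were called in this comparison, beside 8374 of 16471 genes. The libraries of HSL and AP did not overlap for 3 members (Krt7, Krt19 and Krt23), which compares with 20.6% of all genes. For AP against basal 4 members were called higher, 5 lower and 1 was not called, where 44.7% of all genes were called, 21.5% higher and 23.1% lower. The libraries did not overlap for 9 members, against 25.9% of all genes. For HSL against basal 5 were called higher and 5 lower, where 58.4% of all genes were called, 27.8% higher and 30.6% lower. Again 9 members did not overlap, against 36.9% of all genes. The median log2 fold of the members was 0.90, −0.09 and −0.46 in the 3 comparisons in this order, beside −0.011, −0.001 and −0.064 over all genes tested.

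**Figure D2:**
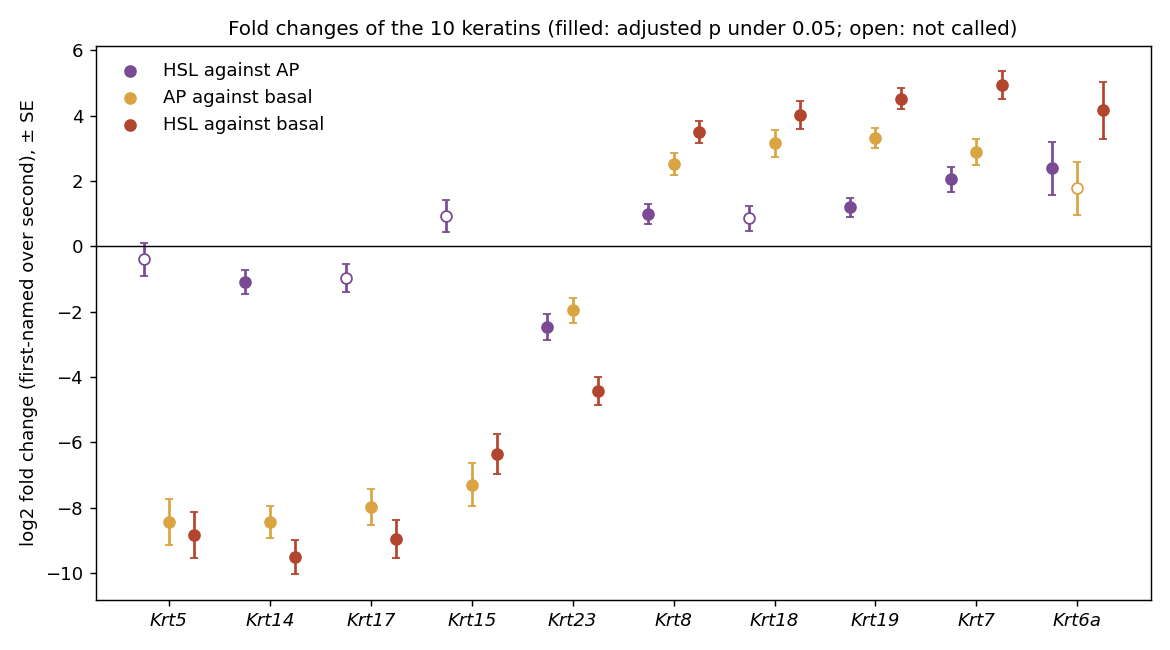
Log2 fold change with its standard error (bars) for each keratin in HSL against AP, AP against basal and HSL against basal, filled where the adjusted p is under 0.05. The 4 basal keratins lie between −6.36 and −9.51 against basal cells, and the 4 luminal keratins between 2.52 and 4.93.

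Krt5 (ENSMUSG00000061527, chr15:101707070-101712898, minus strand) is the type II keratin of basal layers. It had 1.28, 4.07 and 14.9 CPM as the lowest, median and highest value in HSL, 2.32, 10.6 and 14.1 CPM in AP, and 2874, 3030 and 3790 CPM in basal libraries. The basal libraries lay close together and far above both luminal populations, whose ranges overlapped each other. Its log2 fold was −8.44 ± 0.70 for AP against basal (346.6-fold lower in AP, adjusted p = 1.83e-08, edgeR) and −8.83 ± 0.71 for HSL against basal (456-fold lower in HSL, adjusted p = 7.83e-09, edgeR). HSL against AP gave −0.40 ± 0.51 (adjusted p = 0.573, edgeR), with Krt5 higher in HSL in 3 of 6 samples. In bulk libraries fewer cells of a type and less RNA per cell cannot be told apart, here and in every comparison that follows.

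Krt14 (ENSMUSG00000045545, chr11:100203162-100207548, minus strand), its type I partner, had 4.02, 9.11 and 19.2 CPM in HSL, 7.78, 23.4 and 31.8 CPM in AP, and 3902, 7225 and 9748 CPM in basal libraries, as lowest, median and highest. Its log2 fold against basal cells was −9.51 ± 0.53 for HSL (731-fold lower, adjusted p = 8.84e-11, edgeR), the largest of the 10 in that comparison, and −8.43 ± 0.50 for AP (345.5-fold lower, adjusted p = 3.35e-10, edgeR). Within the luminal cells it was called lower in HSL than in AP, at −1.08 ± 0.37 (adjusted p = 0.0267, edgeR) and lower in 5 of 6 samples, although the ranges overlapped. That call was lost without sample 2, 5 or 6, where the adjusted p was 0.104, 0.115 and 0.132 (edgeR), and without sample 1 the value was −1.40 ± 0.36 (adjusted p = 0.00422, edgeR).

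Krt17 (ENSMUSG00000035557, chr11:100256217-100261029, minus strand), a type I keratin that can pair with Krt5, had 3.14, 6.21 and 22.5 CPM in HSL, 10.2, 19.8 and 35.8 CPM in AP, and 3958, 5059 and 6973 CPM in basal libraries. Basal libraries were again apart from all luminal ones. Its log2 fold was −7.98 ± 0.56 for AP against basal (adjusted p = 2.2e-09, edgeR) and −8.96 ± 0.58 for HSL against basal (adjusted p = 5.05e-10, edgeR). HSL against AP gave −0.97 ± 0.42, which was not called (adjusted p = 0.0721, edgeR), with lower values in HSL in 5 of 6 samples. With the sample number as a block, which compares populations within each sample, the value was −1.16 (adjusted p = 0.0169, edgeR), and without sample 1 it was −1.14 ± 0.38 (adjusted p = 0.0227, edgeR). Without sample 4 it was −1.32 (adjusted p = 0.0354, edgeR).

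Krt15 (ENSMUSG00000054146, chr11:100131758-100135928, minus strand), a type I keratin of basal keratinocytes, was the lowest of the 4 in basal cells by mean CPM. It had 7.93, 12.1 and 33.3 CPM in HSL, 2.72, 5.64 and 19.7 CPM in AP, and 666, 818 and 3331 CPM in basal libraries. Sample 1 held the highest value in each population, and basal sample 1 stood far above the other 5. Against basal cells the log2 fold was −7.29 ± 0.65 for AP (adjusted p = 4.85e-08, edgeR) and −6.36 ± 0.62 for HSL (adjusted p = 9.54e-08, edgeR). Unlike Krt5, Krt14 and Krt17, it had a positive value for HSL against AP, 0.93 ± 0.50, and was higher in HSL in 6 of 6 samples, but it was not called (adjusted p = 0.154, edgeR). With a block for the sample number it was called at 1.0 (adjusted p = 0.000481, edgeR), and without sample 1 at 1.02 ± 0.24 (adjusted p = 0.00259, edgeR).

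Krt23 (ENSMUSG00000006777, chr11:99477974-99493137, minus strand) was called lower in all 3 comparisons, with no overlap between libraries in any of them. It had 2.59, 3.46 and 16.6 CPM in HSL, 20.9, 33.3 and 43.0 CPM in AP, and 82.0, 124 and 160.0 CPM in basal libraries. Each population thus filled a range of its own, with AP between the others. The log2 fold was −2.47 ± 0.40 for HSL against AP (adjusted p = 8.94e-05, edgeR), −1.96 ± 0.39 for AP against basal (adjusted p = 0.000437, edgeR) and −4.43 ± 0.43 for HSL against basal (adjusted p = 9.24e-08, edgeR). Sample 1 gave the highest HSL value, and without it HSL against AP was −3.15 ± 0.26 (adjusted p = 1.4e-07, edgeR) and HSL against basal −5.05 ± 0.28 (adjusted p = 4.3e-10, edgeR).

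Krt8 (ENSMUSG00000049382, chr15:101996698-102004482, minus strand), the type II keratin of simple epithelia, had 905, 2513 and 3566 CPM in HSL, 487, 1379 and 1482 CPM in AP, and 118, 192 and 349.9 CPM in basal libraries. Sample 1 had the lowest value of each population, and through it the HSL and AP ranges overlapped. Krt8 was higher in HSL than in AP in 6 of 6 samples, with a log2 fold of 0.98 ± 0.31 (1.97-fold higher, adjusted p = 0.0184, edgeR). This call was lost without sample 2, 3 or 6 (adjusted p = 0.0571, 0.0945 and 0.0662, edgeR), and without sample 1 it was 0.96 ± 0.19 (adjusted p = 0.000664, edgeR). Against basal cells it was 2.52 ± 0.33 for AP (5.73-fold higher, adjusted p = 5.23e-06, edgeR) and 3.50 ± 0.34 for HSL (11.3-fold higher, adjusted p = 9.51e-08, edgeR).

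Krt18 (ENSMUSG00000023043, chr15:102028180-102032027, plus strand), the partner of Krt8, is the only type I member outside chromosome 11 and is annotated beside Krt8. It had 3600 CPM as the lowest, 8899 as the median and 12505 as the highest value in HSL, 1476, 5252 and 5993 CPM in AP, and 155, 508 and 1017 CPM in basal libraries. The HSL and AP ranges overlapped through the HSL library of sample 1, and both lay above all basal libraries. Its log2 fold was 3.15 ± 0.41 for AP against basal (8.90-fold higher, adjusted p = 4.85e-06, edgeR) and 4.01 ± 0.43 for HSL against basal (16.2-fold higher, adjusted p = 2.52e-07, edgeR). HSL against AP gave 0.86 ± 0.38, which was not called (adjusted p = 0.0802, edgeR), although Krt18 was higher in HSL in 6 of 6 samples. It was called with a block for the sample number, at 0.89 (adjusted p = 0.000283, edgeR), and without sample 1, at 0.81 ± 0.21 (adjusted p = 0.00491, edgeR).

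Krt19 (ENSMUSG00000020911, chr11:100140810-100148665, minus strand), the smallest type I keratin and a common marker of luminal cells, had 7827 CPM as the lowest, 14248 as the median and 18076 as the highest value in HSL, 2753, 6614 and 7700.1 CPM in AP, and 383, 595 and 1107 CPM in basal libraries. The 3 ranges did not overlap, even with sample 1 at the foot of each. The log2 fold was 1.19 ± 0.28 for HSL against AP (2.29-fold higher, adjusted p = 0.00264, edgeR), 3.31 ± 0.31 for AP against basal (9.94-fold higher, adjusted p = 7.69e-08, edgeR) and 4.51 ± 0.32 for HSL against basal (22.7-fold higher, adjusted p = 2.01e-09, edgeR). Without sample 1, HSL against AP was 1.14 ± 0.21 (adjusted p = 0.000323, edgeR).

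Krt7 (ENSMUSG00000023039, chr15:101411043-101430313, plus strand), a type II keratin of glandular epithelia, separated the luminal populations the most of the 4 luminal keratins. It had 1735, 4126 and 5796 CPM in HSL, 348, 1036 and 1359 CPM in AP, and 52.2, 110.3 and 283 CPM in basal libraries. No library of one population reached the range of another. Its log2 fold was 2.05 ± 0.38 for HSL against AP (4.14-fold higher, adjusted p = 0.000308, edgeR), 2.88 ± 0.39 for AP against basal (7.37-fold higher, adjusted p = 7.77e-06, edgeR) and 4.93 ± 0.43 for HSL against basal (30.5-fold higher, adjusted p = 2.06e-08, edgeR). Without sample 1, HSL against AP was 2.01 ± 0.26 (adjusted p = 1.41e-05, edgeR).

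Krt6a (ENSMUSG00000058354, chr15:101689910-101694307, minus strand) was present at low levels and varied the most between samples. It had 2.45, 50.6 and 139 CPM in HSL, 0.46, 9.83 and 18.5 CPM in AP, and 0.65, 2.34 and 9.33 CPM in basal libraries. All 3 ranges overlapped, since sample 1 was the lowest and sample 4 the highest of each population, and the highest HSL library was 56.7 times the lowest. The log2 fold was 2.39 ± 0.81 for HSL against AP (adjusted p = 0.0242, edgeR) and 4.16 ± 0.87 for HSL against basal (adjusted p = 0.000486, edgeR), each with higher values in HSL in 6 of 6 samples. HSL against AP lost its call without sample 3, 4, 5 or 6 (adjusted p = 0.074, 0.0506, 0.0586 and 0.0968, edgeR). Without sample 1 the folds were 2.37 ± 0.54 for HSL against AP (adjusted p = 0.00187, edgeR) and 4.19 ± 0.59 for HSL against basal (adjusted p = 1.26e-05, edgeR). AP against basal gave 1.77 ± 0.80, which was not called (adjusted p = 0.0802, edgeR), with higher values in AP in 5 of 6 samples. It was called with a block for the sample number (1.79, adjusted p = 0.00146, edgeR), without sample 1 (1.82 ± 0.54, adjusted p = 0.0102, edgeR) and without sample 4 (2.29, adjusted p = 0.0321, edgeR). Of the 50-base stretches of its transcripts 57.2% also occur in another gene, 40.3% in Krt6b, and 40.1% of its span is overlapped by other annotated genes, so its level is uncertain.

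Divided by the exon length of each gene, the levels of different keratins were set side by side as CPM per kb. Counts may include introns, for which exon length does not account, so orders between genes are approximate. In HSL the order was Krt19 (7672 ± 2041 CPM per kb, SD, n = 6), Krt18 (5915 ± 2041), Krt8 (1214 ± 464) and Krt7 (569 ± 191), with each of the other 6 at 22.9 or less. In AP it was Krt19 (3353 ± 956), Krt18 (3257 ± 1152), Krt8 (615 ± 196) and Krt7 (137 ± 50.1), followed by Krt23 at 20.7 ± 4.68. Krt19 exceeded Krt18 in 6 of 6 HSL libraries and in 3 of 6 AP libraries, where their levels did not differ beyond the spread. Krt19 has 1855 bases over all annotated exons and 1576 bases in the longest transcript, while Krt18 has 1437 bases by either. The shorter length raises Krt19 against Krt18. The AP count, and the order of Krt18 and Krt19 in basal libraries, therefore depend on the length used. Below Krt7 the HSL order was Krt6a, Krt15, Krt17, Krt14, Krt23 and Krt5, and the ranges of all neighbours in it overlapped. In AP it was Krt23, Krt17, Krt14, Krt15, Krt6a and Krt5, again with overlapping ranges. Without sample 1 the last 2 in HSL were Krt5 (2.37 CPM per kb) and Krt23 (2.32), and the last 5 in AP were Krt14, Krt17, Krt6a, Krt5 and Krt15 (11.7, 11.1, 5.19, 3.65 and 3.05).

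Basal libraries had Krt14 at the top (4077 ± 1071 CPM per kb, SD, n = 6), then Krt17 (3316 ± 748), Krt5 (1426 ± 156) and Krt15 (689 ± 591). Without sample 1, Krt15 was at 450 CPM per kb, beside 418 for Krt18, and the basal order was the same. Krt14 exceeded Krt17 in 5 of 6 basal libraries with overlapping ranges, while Krt17 exceeded Krt5 in 6 of 6 with none. Luminal keratins came next, Krt18 at 366 ± 194, Krt19 at 337 ± 142 and Krt8 at 107 ± 39.2, followed by Krt23 at 80.2 ± 19.2, Krt7 at 18.6 ± 11.2 and Krt6a at 1.27 ± 1.30. Krt15 exceeded Krt18 in 5 of 6 basal libraries, with overlapping ranges. Krt5 and Krt15 also overlapped there, as did Krt18 and Krt19, and Krt8 and Krt23. The Krt7 value depends on its length, 7049 bases over all annotated exons and 4094 bases for the longest transcript, with which its level was 979.7 CPM per kb in HSL, 237 in AP and 32.1 in basal libraries.

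**Figure D3:**
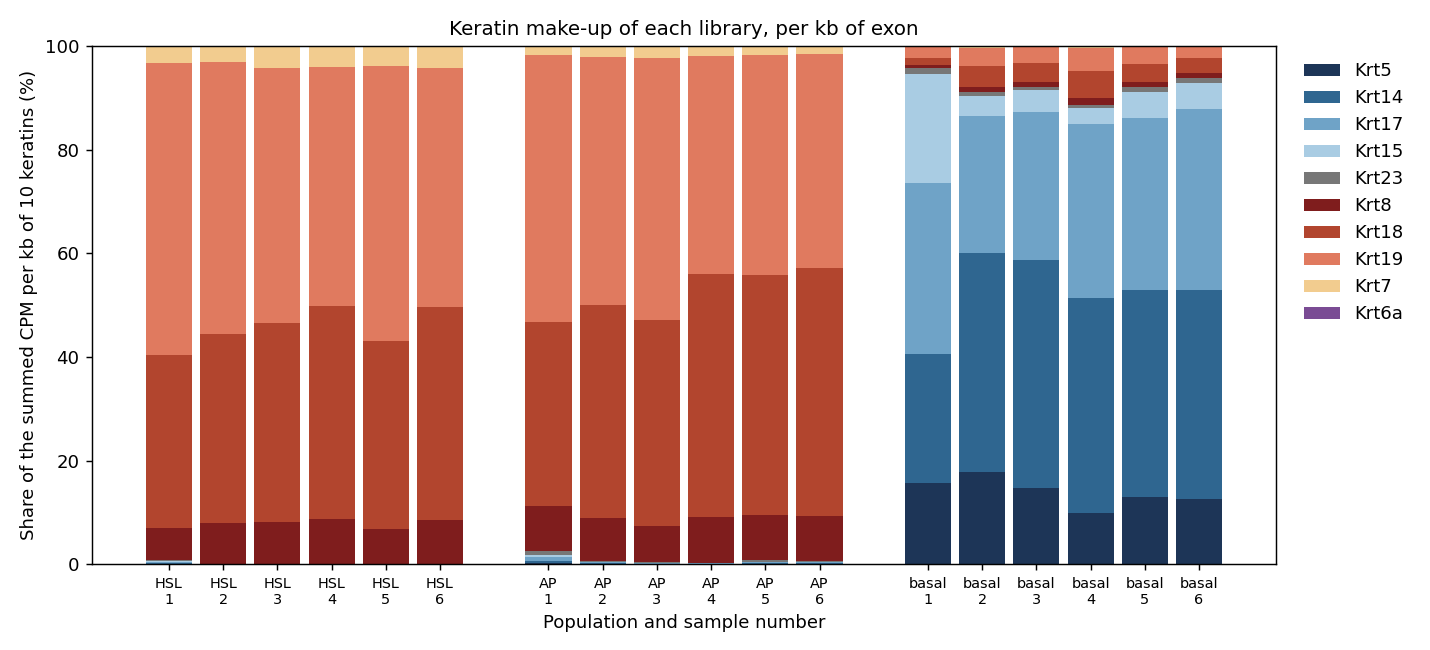
Share of the summed CPM per kb of the 10 keratins taken by each keratin, in each HSL, AP and basal library (bars, sample number below). Krt19, Krt18, Krt8 and Krt7 fill nearly all of the HSL and AP bars, and in basal sample 1 Krt15 takes 21.1%, against 3.06 to 5.08% in the other 5.

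Taken as shares of the summed CPM per kb, Krt19 made up 50.5 ± 4.12%, 45.9 ± 4.59% and 3.16 ± 0.857% in HSL, AP and basal libraries, and Krt18 made up 37.8 ± 3.03%, 42.9 ± 4.87% and 3.38 ± 1.33% (SD, n = 6 each). Krt14 made up 38.8 ± 6.97% and Krt17 31.6 ± 3.31% of the basal sum. The 10 genes together took 2.71 ± 0.618% of all counts in HSL, 1.40 ± 0.396% in AP and 1.79 ± 0.207% in basal libraries. On the scale of CPM per kb, type I keratins exceeded type II keratins in every library, by a ratio of 7.81 ± 1.05 in HSL, 8.77 ± 0.645 in AP and 5.75 ± 1.19 in basal libraries. Every HSL or AP ratio was at least 6.82, and basal ratios ran from 4.23 to 7.69, so that basal and HSL libraries overlapped while basal and AP libraries did not. Without sample 1 the mean ratio was 7.47 in HSL, 8.83 in AP and 5.89 in basal libraries, and the keratin share of counts 2.92, 1.56 and 1.82%. With the deposited gene widths as lengths, HSL ratios ran from 8.12 to 11.2 and basal ratios from 4.21 to 7.73, so this overlap depends on the length used. As sums over chosen genes these values were not tested. Sequence shared with other genes was not corrected for. It was largest for Krt6a (57.2% of 50-base stretches) and Krt8 (29.7%), both type II.

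The excess of type I counts per kb also held within the standard pairs. Krt18 exceeded Krt8 by a ratio of 4.97 ± 0.351 in HSL, 5.19 ± 0.580 in AP and 3.24 ± 0.792 in basal libraries, on the scale of CPM per kb (SD, n = 6 each). The ratio of Krt14 to Krt5 was 2.62 ± 1.44 in HSL, 3.18 ± 0.801 in AP and 2.90 ± 0.880 in basal libraries. These message ratios say nothing of protein levels, which were not measured. Of the 50-base stretches of Krt8 29.7% also occur in another gene, against 0.72% of those of Krt18. For Krt5 and Krt14 the shares were 12.2 and 13.9%. The part of shared sequence in the ratios was not tested.

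Low levels of basal keratins in luminal libraries were compared with those of other basal genes. As the median over 6 samples of the percentage of the basal library of the same sample, Krt5 stood at 0.123%, Krt14 at 0.125% and Krt17 at 0.154% in HSL. In AP they stood at 0.320%, 0.354% and 0.364%. The 12 basal markers had a median of 0.214% in HSL, from Cxcl14 at 0.0757% to Vim at 1.88%, and of 0.706% in AP, from Cnn1 at 0.259% to Vim at 5.84%. Krt5, Krt14 and Krt17 were thus within the range of the marker list in both luminal populations and below its median. No marker of the list was at 0 in either population, and its summed level was 53.8 to 245 CPM in HSL, 237 to 459 CPM in AP and 24005 to 45574 CPM in basal libraries. The part of basal cells carried over in the sort in these levels was not tested.

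Krt15 and Krt23 had higher medians on this scale than Krt5, Krt14 and Krt17. Krt15 stood at 1.20% in HSL, with a range over samples of 0.999 to 1.89%, above the highest HSL value of Krt5, Krt14 or Krt17 (0.495%). In AP Krt15 stood at 0.715%, beside a marker median of 0.706%, and its range of 0.376 to 0.789% overlapped that of Krt17 (0.216 to 0.788%). The Krt15 medians were within the range of the marker medians in both luminal populations. Krt23 stood at 2.81% in HSL and at 24.6% in AP, where its range of 17.8 to 39.5% lay above that of every one of the 12 basal markers.

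**Figure D4:**
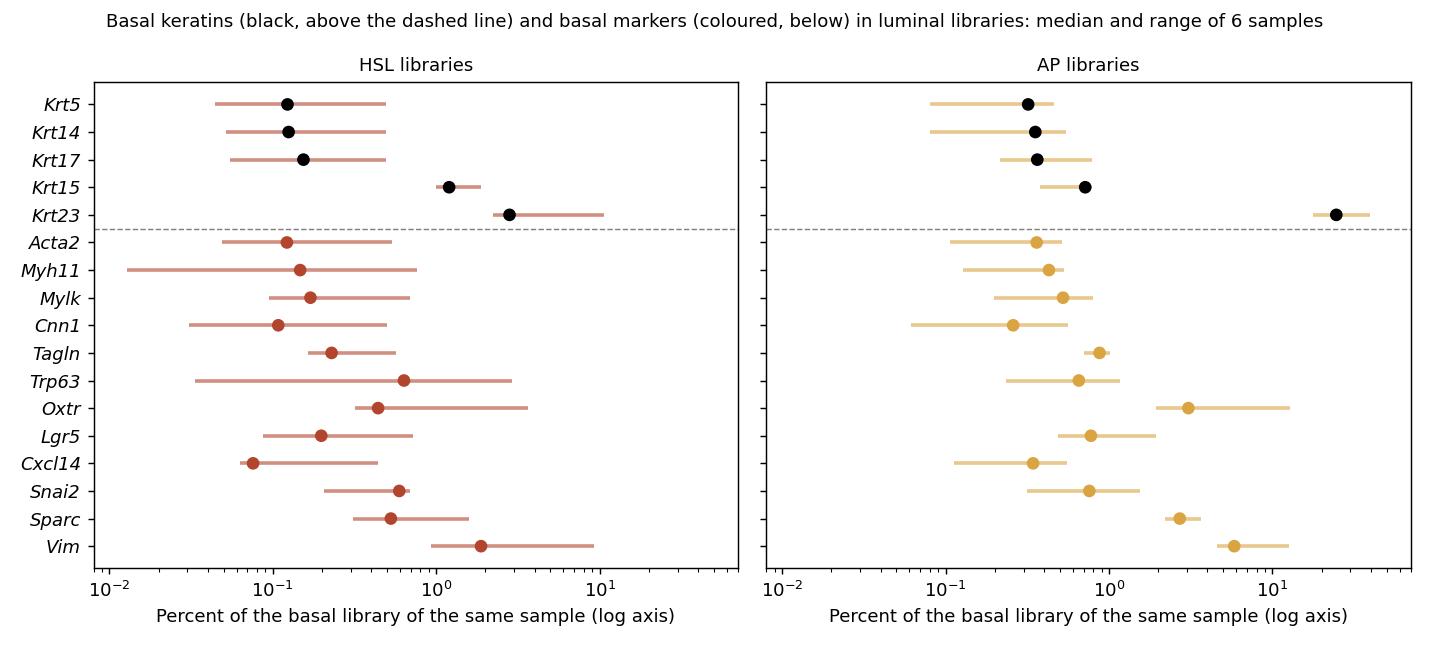
Level of basal keratins (black) and 12 basal markers (coloured) in HSL and AP libraries as a percentage of the basal library of the same sample (log axis), with points for the median and lines for the range of 6 samples. Krt5, Krt14 and Krt17 lie among the contractile genes Acta2, Myh11, Mylk and Cnn1, and Krt23 in AP lies above every marker.

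The luminal keratins were likewise present in basal libraries. As a percentage of the HSL library of the same sample, the median in basal libraries was 3.0% for Krt7, 4.25% for Krt19, 5.49% for Krt18 and 8.72% for Krt8. The hormone-sensing genes Prlr, Foxa1 and Esr1 stood at 2.21, 2.95 and 10%, and the claudins Cldn4, Cldn7 and Cldn3 at 4.8, 5.29 and 7.16%. Epcam, a gene of the sort itself, stood at 16.3%. The keratins were thus within the range of these luminal genes. Against the AP library of the same sample the basal medians were 9.49% for Krt19, 10.5% for Krt18, 12.9% for Krt7 and 17.1% for Krt8, beside 1.78% for Kit and 2.05% for Elf5, both alveolar progenitor genes, 4.34 to 4.92% for the claudins and 15.8% for Epcam. On the same AP scale Prlr stood at 14.3%, Foxa1 at 16.1% and Esr1 at 38.0%. All 4 luminal keratins were thus above Kit, Elf5 and the 3 claudins, and within or below the range of the hormone-sensing genes. The part of luminal cells in the basal sort was not tested.

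Sample 1 stood apart from the others in all 3 populations for some members and in 1 or 2 populations for others. Its Krt7, Krt8, Krt18 and Krt19 levels were between 25.9 and 56.8% of the mean of samples 2 to 6 in every population. Krt6a was at 3.71% of that mean in HSL, 3.66% in AP and 18.2% in basal cells. In contrast Krt15 was at 300.0% in HSL, 364% in AP and 419% in basal cells, above every other library. The other basal keratins differed by population. Krt14 was at 244% in HSL, 103% in AP and 49.9% in basal cells, and Krt23 at 457%, 110% and 131%. Krt5 was at 286%, 176% and 97.6%, and Krt17 at 285%, 208% and 86.4%. Marker genes moved as well, and their part in these values was not tested. The summed hormone-sensing markers in HSL were 5649 CPM in sample 1, against 12340 to 15779 in the other 5, the alveolar progenitor markers in AP were 3641 CPM, against 7183 to 10706, and the basal markers in basal cells were 24005 CPM, against 36717 to 45574. Leukocyte markers, 10 genes of which Itgam was at 0 in every population, summed to 198 CPM in sample 1 and 6.78 to 101.5 CPM in the others in HSL, to 129.97 and 11.6 to 104 CPM in AP, and to 398 and 82.2 to 383 CPM in basal libraries.

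**Figure D5:**
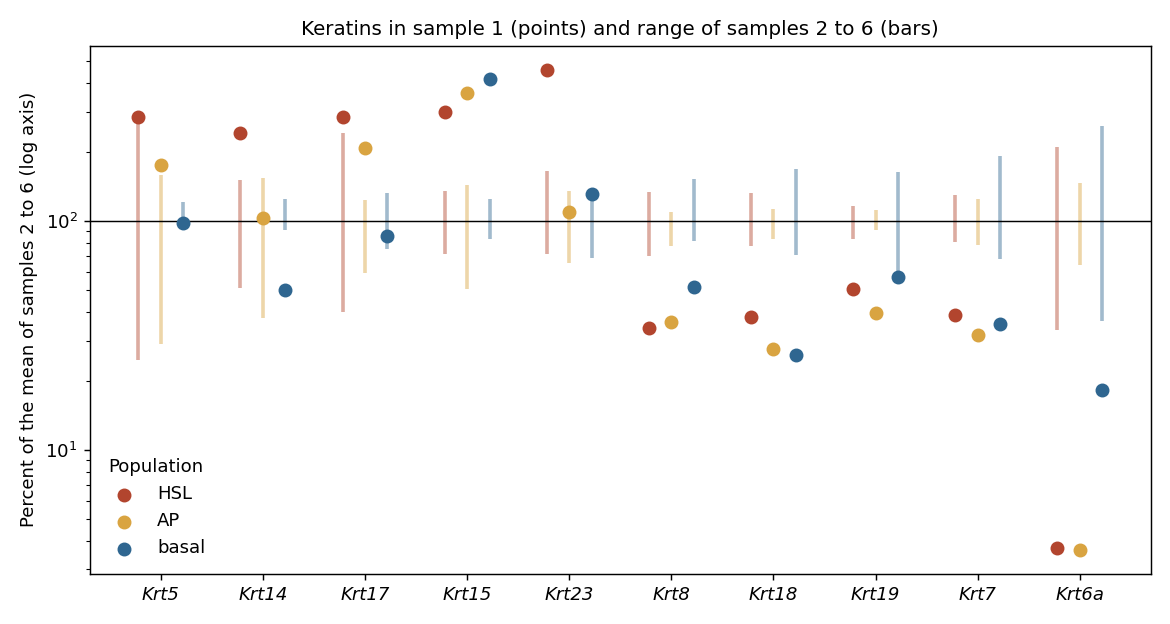
Level of each keratin in sample 1 (points) as a percentage of the mean of samples 2 to 6 (log axis), and range of samples 2 to 6 on the same scale (bars), in HSL, AP and basal libraries. Krt15 lies above the bars and Krt7, Krt8 and Krt18 below them in all 3 populations.

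Partner keratins were set against each other over the 6 libraries of a population, in log2 CPM, with exact permutation tests adjusted by the Benjamini-Hochberg method over 18 relations (two-sided). The p-values and calls given for each pair are those of Pearson's r unless rho is named. By Spearman's rho, Krt8 with Krt18 in HSL and Krt7 with Krt19 in basal libraries were called (adjusted exact permutation p = 0.025 each). No other relation was called by rho. Krt8 and Krt18 went together in HSL with r = 0.996 (Spearman's rho = 1.00, exact permutation p = 0.00139, adjusted p = 0.0125). In AP they gave r = 0.991 (rho = 0.943, exact permutation p = 0.00278, adjusted p = 0.0167) and in basal libraries r = 0.960 (rho = 0.829, exact permutation p = 0.0278, adjusted p = 0.05), which just missed the threshold. Without the 2 libraries farthest from the median of Krt8, r was 1.00 in HSL, 0.85 in AP and 0.45 in basal libraries. For Krt7 and Krt19, r was 0.934 in basal libraries (rho = 1.00, exact permutation p = 0.00139, adjusted p = 0.0125, and r = 0.85 without 2 libraries). In AP it was 0.973 (rho = 0.829, exact permutation p = 0.0111, adjusted p = 0.04), which fell to 0.51 without 2 libraries. In HSL it was 0.904 (rho = 0.714, exact permutation p = 0.0403, adjusted p = 0.0659), and −0.14 without 2 libraries. Leaving out the extreme libraries narrows the range of the first keratin, which by itself tends to lower r. A fall therefore cannot show whether a relation rests on those libraries.

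Relations of Krt5 were tested in each population, and their difference between populations was not tested. In basal libraries, where both are abundant, Krt5 had r = −0.10 with Krt14 (rho = −0.43, exact permutation p = 0.838), −0.59 with Krt17 (rho = −0.49, exact permutation p = 0.204) and −0.16 with Krt15 (rho = −0.14, exact permutation p = 0.721), and none was called after adjustment (0.838, 0.245 and 0.763). In HSL, Krt5 and Krt14 gave r = 0.890 (rho = 0.943, exact permutation p = 0.0236, adjusted p = 0.0472), with 0.75 after 2 libraries were left out. In AP they gave r = 0.943 (exact permutation p = 0.0236, adjusted p = 0.0472), but −0.40 without 2 libraries. There rho was 0.6 and was not called (exact permutation p of rho = 0.242, adjusted p = 0.335). Krt5 had an SD of 0.15 in log2 CPM among basal libraries, against a median of 0.41 there over all genes tested, whatever their level. Without sample 1 these values were 0.17 and 0.32. The other pairs were Krt5 with Krt17 in HSL (r = 0.934, rho = 0.943, exact permutation p = 0.0153, adjusted p = 0.0458, and 0.59 without 2 libraries), Krt8 with Krt19 in HSL (r = 0.951, rho = 0.829, exact permutation p = 0.00972, adjusted p = 0.04, and 0.56) and Krt8 with Krt19 in basal libraries (r = 0.894, rho = 0.829, exact permutation p = 0.0194, adjusted p = 0.0472, and 0.43). The remaining 4 were not called.

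Genes outside the keratin family with the most similar profiles were found by the root mean square difference of log2 CPM after centring each gene on its own mean, over 18 libraries and among 9312 genes at a mean of 10 CPM or more. For Krt5 and Krt17 the nearest was Mylk, the kinase of myosin light chain in smooth muscle contraction, at 0.78 and 0.60. For Krt14 they were Cxcl14, a chemokine, and Mylk, both at 0.42, followed by smooth muscle actin, Acta2, at 0.47. Krt15 was nearest to Bmp7, a growth factor of the BMP family, at 0.60. Krt7 was nearest to Aqp5, a water channel, at 0.24, Krt19 to Hid1 at 0.23 and Krt23 to Epb41l2, a protein that links membrane and actin skeleton, at 0.46. Krt6a was nearest to Ly6a (0.70) and Ly6d (0.75), which code for surface proteins. The nearest distances of Krt7 and Krt19 were thus smaller than those of Krt5, Krt14, Krt15 and Krt17. Mean levels of Aqp5 were 4145, 1015 and 125 CPM in HSL, AP and basal libraries, beside 4011, 969 and 131 CPM for Krt7.

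The closest match of all was that of Krt8 with Nlrp4e, a gene of the NLR family on chromosome 7, at 0.09. Nlrp4e stood at 10.2 to 12.6% of the Krt8 level in every one of the 18 libraries, with medians of 11.8% in HSL, 11.6% in AP and 11.2% in basal libraries. The processed pseudogene Krt8-ps lies inside the Nlrp4e span (chr7:23357125-23358069) and shares 26.9% of the 50-base stretches of Krt8, while its own count was 0 in all 18 libraries. Krt18 showed the same on a smaller scale. Its nearest gene was the processed pseudogene Gm17847 on chromosome 1 (0.25), which stood at 0.330 to 0.627% of Krt18. The sequence shared with Krt8-ps makes the level of Krt8 uncertain, and whether reads of Krt8 were counted under Nlrp4e was not tested. For Cystm1, the nearest gene to Krt18 other than Gm17847, the value was 0.27.

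Among the 44 other keratin genes of the table, 19 were tested, and 19, not all of them the same genes, reached a mean of 1 CPM in a population. As a measure for the counts that follow, 19.8% of all genes tested were called higher and 20.1% lower for HSL against AP. The shares were 21.5 and 23.1% for AP against basal, and 27.8 and 30.6% for HSL against basal. Some of the counts lie near these shares. Of 6 other type I keratins tested, 1 was called higher and 1 lower for HSL against AP, 0 higher and 4 lower for AP against basal, and 1 higher and 4 lower for HSL against basal (edgeR). For HSL against AP these counts were 2 higher without sample 3, and 0 higher and 2 lower without sample 4, and for HSL against basal 0 were called higher without sample 2. DESeq2, and an unadjusted p under 0.05 in edgeR, also gave 0 higher type I keratins for AP against basal. Of 13 other type II keratins, 7 were called higher and 1 lower for HSL against AP, 5 higher and 4 lower for AP against basal, and 8 higher and 1 lower for HSL against basal. The number called higher for HSL against AP was 4, 2, 3 and 2 without sample 3, 4, 5 or 6, and that for AP against basal was 3 without sample 2, 3, 4 or 5. The number called lower for AP against basal was 2 without sample 5 or 6. For HSL against basal 0 were called lower without sample 1, 2, 3, 5 or 6, and 3 without sample 4. Krt42, a type I keratin, had the highest mean of these genes in basal libraries, at 0.555 ± 0.281, 0.443 ± 0.163 and 42.8 ± 23.1 CPM in HSL, AP and basal libraries, with a log2 fold of −6.58 ± 0.43 for AP against basal (adjusted p = 9.82e-10, edgeR). Krt10, known from the upper epidermis, had 3.87 ± 0.949, 7.33 ± 1.48 and 12.9 ± 1.47 CPM and was called lower in HSL than in AP and in AP than in basal cells. Krt4, Krt78 and Krt87, all type II, had their highest means in HSL, with 15.9 ± 10.7, 15.9 ± 9.91 and 6.69 ± 3.35 CPM there and 3.48 ± 1.80, 4.08 ± 2.22 and 1.24 ± 0.857 CPM in AP. Krt80 was highest in AP, at 40.1 ± 11.6 CPM, against 19.1 ± 5.34 in HSL and 19.0 ± 6.48 in basal libraries, but its whole span is shared with another gene.

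Keratins of the hair follicle were high in 1 HSL library. HSL sample 4 held Krt71 at 66.3 CPM, Krt35 at 26.5, Krt28 at 16.8, Krt73 at 14.7, Krt25 at 14.0, Krt27 at 7.33 and Krt75 at 6.89 CPM. The median HSL library held 0 CPM of Krt71, Krt25, Krt27 and Krt75 and at most 0.263 CPM of the others. Basal libraries held Krt71 at 5.11 to 14.1 CPM (median 10.2), Krt28 at 0.443 to 3.04 CPM (median 1.67) and Krt73 at 0.0757 to 27.9 CPM (median 0.542), while AP libraries held at most 1.28 CPM of any of these 3. Krt71, Krt28 and Krt73 were called higher in HSL than in AP (log2 folds of 5.26 ± 1.83, 5.13 ± 1.5 and 4.84 ± 1.69, adjusted p = 0.0286, 0.0109 and 0.0292, edgeR), and without sample 4 none of these was called (adjusted p = 0.234, 0.569 and 0.495, edgeR). Without sample 4 the count of other type II keratins called higher in HSL than in AP was 2 of 12 tested, beside 2586 of 16506 genes. Against basal cells Krt71, Krt28 and Krt73 were then called lower in HSL, at −4.48 ± 1.39, −4.06 ± 0.87 and −4.54 ± 1.29 (adjusted p = 0.0131, 0.00102 and 0.00765, edgeR). The basal mean of Krt73, 5.16 CPM, rests mainly on basal sample 1. That library held 27.9 CPM, more than the 14.7 CPM of HSL sample 4. HSL sample 4 also had the highest HSL level of Krt7, Krt8, Krt18, Krt19 and Krt6a. Over all 12 hair follicle markers, 2 (Tchh and Fgf5) were at 0 in every HSL library, and the summed level ran from 977 to 1232 CPM in HSL, 583 to 1812 in AP and 223 to 377 in basal libraries, most of it Sox9, which mammary luminal cells also express. The part of skin cells in HSL sample 4 was not tested.

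Filaments are tied to desmosomes and hemidesmosomes by plakins, plakophilins and other linkers, of which 16 were tested, among them Itga6, which codes for the sort antigen CD49f. In HSL against AP 3 were called higher and 6 lower, in AP against basal 5 higher and 8 lower, and in HSL against basal 4 higher and 9 lower, with a median log2 fold of −0.32, −0.58 and −0.79. Over all genes tested, 19.8% were called higher and 20.1% lower in HSL against AP. The shares were 21.5 and 23.1% in AP against basal, and 27.8 and 30.6% in HSL against basal. For HSL against AP the count of linkers called higher was 5 without sample 1, 2 without sample 4 and 1 without sample 3, 5 or 6. Pkp2, a desmosomal plakophilin, had 55.0 CPM in HSL, 75.0 in AP and 3.47 in basal libraries on average, with a log2 fold of 4.43 ± 0.23 for AP against basal (adjusted p = 7.78e-11, edgeR). Envoplakin (Evpl) averaged 81.4, 34.9 and 2.77 CPM and was 3.64 ± 0.33 higher in AP than in basal cells on the log2 scale (adjusted p = 6.95e-08, edgeR). The hemidesmosomal collagen Col17a1 showed the reverse, at 0.592, 2.77 and 791 CPM, and gave −8.17 ± 0.77 for AP against basal (adjusted p = 9.95e-08, edgeR). Pkp1 averaged 26.8, 134 and 254 CPM, and was the linker with the smallest adjusted p in HSL against AP, at −2.31 ± 0.25 (adjusted p = 1.74e-06, edgeR).

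Of 13 other intermediate filament genes 7 were tested, and 0 were called higher and 4 lower for HSL against AP, 0 higher and 4 lower for AP against basal, and 1 higher and 4 lower for HSL against basal (edgeR). DESeq2 also called 0 higher in the first and the second of these comparisons, and at an unadjusted p under 0.05 edgeR gave 0 for HSL against AP and 1 for AP against basal. With a block for the sample number, and also without sample 1, 1 was called higher for HSL against AP and 2 for AP against basal. Of all genes tested, 19.8% were called higher and 20.1% lower for HSL against AP with all samples and no block. These shares were 21.5 and 23.1% for AP against basal, and 27.8 and 30.6% for HSL against basal. The number called lower for HSL against AP was 2 without sample 2 or sample 6, and for HSL against basal 0 were called higher without sample 5. Markers of cells outside the epithelium also differed between populations, not all in the direction of these genes, and their part was not tested. All 10 fibroblast markers were called lower in HSL than in AP and than in basal libraries, all 10 endothelial markers lower in HSL and in AP than in basal libraries, and of 8 pericyte markers 7 were lower in HSL and 6 in AP than in basal libraries (edgeR). For AP against basal, however, 5 fibroblast markers were called higher and 3 lower. The pericyte marker Notch3 was called higher in AP and in HSL than in basal libraries, at 3.38 ± 0.28 and 3.23 ± 0.28. Vimentin (Vim), the filament of mesenchymal cells, averaged 13.5, 33.0 and 500 CPM in HSL, AP and basal libraries, with −3.92 ± 0.42 for AP against basal (adjusted p = 5.18e-07, edgeR). Nestin (Nes) averaged 0.761, 2.86 and 32.4 CPM, with −3.50 ± 0.55 for AP against basal (adjusted p = 4.21e-05, edgeR). Lmna, the nuclear lamin A gene, averaged 1902, 3984 and 2357 CPM, and gave −1.07 ± 0.32 for HSL against AP (adjusted p = 0.0137, edgeR).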

How the data were processed

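RNA was measured in 18 libraries, made per the labels' protocols with Smart-Seq v4 (2 ng of RNA) and Nextera XT (150 pg of cDNA), a route that keeps no strand information. The authors deposited whole-number counts per gene, per the file headers, on build GRCm38 per the submitters' processing notes, with aligner and counting tool not given in the sources used here. The RPKM values deposited beside them, per the file headers, served only to check the files. The width given for a gene equals its genomic span for 85.6% of genes, so counts may include introns. Symbols and coordinates come from GENCODE M21, which matched 52489 of 52636 gene identifiers. The 147 unmatched ones, with at most 0.00677% of counts per library, were left out.

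The count model was that of edgeR 4.0.16 (R 4.3.3). After the filter of filterByExpr at a minimum count of 10, 16471 genes were scaled with TMM factors and fitted with 1 mean per population over all libraries (robust quasi-likelihood). P-values were adjusted by Benjamini-Hochberg over all genes tested and called under 0.05. Precision is limited by the spread among 6 libraries more than by depth, since the lowest count of a member in any library was 24. Levels between genes use the union of annotated exons. Correlations used scipy 1.17.1 and figures matplotlib 3.10.9.

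The design names 6 animals, and every sample number has 1 library in each population. In all 18 pairs of libraries that share a number, departures from the population mean were correlated across genes (r from 0.127 to 0.63, median −0.07 for different numbers). The numbers were therefore taken to pair the samples. The main model, which gave the calls, did not use this pairing. It entered only the model with the sample number as a block and the comparisons within a sample. No 2 libraries agreed within sampling noise. P-values measure the spread between these samples.

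All 10 members, the gene lists and the alternatives were chosen with earlier results of these data known. Genes named outside the members are the 3 most alike in profile for each member, up to 4 called genes per list, other keratins at 1 CPM or more, and comparison genes chosen after their values were seen. Alternatives were the sample number as a block, DESeq2 1.42.0, other scalings, no filter, 2 populations only, each sample left out, samples 1 to 3 or 4 to 6 only, and other gene lengths, with counts per list and levels per kb without single samples added after seeing the data.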

Additional observations from a re-analysis of the deposited data

Results flagged for a closer look

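In 36 groups of 6 libraries (each keratin in each population, and the type I to type II ratio and summed keratin level in each population), the highest or lowest library was compared with the rest by Dixon's criterion, and 11 stood apart, 7 of them from sample 1. Chance alone flags about 1 in 20 groups. Krt15 was far above the other libraries of its population in sample 1 in all 3 populations, at 33.3 CPM in HSL (next 15.0), 19.7 CPM in AP (next 7.77) and 3331 CPM in basal cells (next 995). Krt23 was likewise highest in HSL sample 1, at 16.6 CPM (next 6.0). In AP sample 1 Krt18 was lowest at 1476 CPM (next 4449), Krt19 was lowest at 2753 CPM (next 6340.1), and the summed level of the 10 keratins was lowest at 2884 CPM per kb (next 7771).

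Basal sample 4 had the highest Krt7, at 283 CPM (next 131), and the highest Krt6a, at 9.33 CPM (next 2.53). Basal sample 2 had the highest Krt5, at 3790.0 CPM (next 3182). AP sample 3 had the highest type I to type II ratio, at 10.02 (next 8.84).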

How the results depend on the processing

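Of 420 alternative values of member folds, 389 kept their direction and their side of the threshold, 17 lost their call, 14 gained one and 0 changed direction. Those under the block and with single samples left out are given with the results. DESeq2 also called Krt17 in HSL against AP (adjusted p = 0.0449) and Krt6a in AP against basal (0.0402). With samples 4 to 6 only, Krt15 in HSL against AP (adjusted p = 0.0124, edgeR) and Krt6a in AP against basal (adjusted p = 0.0402, edgeR) gained a call. With samples 1 to 3 only, Krt7, Krt8, Krt14, Krt19, Krt23 and Krt6a lost theirs in HSL against AP (adjusted p = 0.0908, 0.23, 0.363, 0.167, 0.0616 and 0.436, edgeR) and Krt23 in AP against basal (adjusted p = 0.0632, edgeR). With the sample number as a block (replicate block), Krt15, Krt17 and Krt18 in HSL against AP and Krt6a in AP against basal gained a call (adjusted p = 0.000481, 0.0169, 0.000283 and 0.00146, edgeR), and no other call of a member changed. With samples 1 to 3 only, 1491, 3718 and 5674 genes were called in HSL against AP, AP against basal and HSL against basal, and 0 members in HSL against AP (edgeR, 3 at an unadjusted p under 0.05, with DESeq2 not run on these samples), beside 6571, 7356 and 9621 genes over all samples. With samples 4 to 6 only, 7090, 7693 and 9835 genes were called, and 7 members in HSL against AP. The cause of this difference was not tested. Leaving out 1 sample at a time, the members called in HSL against AP ranged from 3 without sample 6 to 9 without sample 1. Over all genes 5207 of 16538 and 7898 of 16450 were called in these 2 settings. Scaling by total counts alone moved the median log2 fold of all genes to −0.185 in HSL against AP and 0.136 in AP against basal, with 35.6% and 57.6% of calls higher, against 49.6% and 48.2% with TMM factors. Under that scaling r was 0.896 and 0.94 for Krt5 with Krt14 and Krt17 in HSL, 0.886 for Krt8 with Krt19 in HSL, 0.952, 0.988 and 0.968 for Krt5 with Krt14, Krt8 with Krt18 and Krt7 with Krt19 in AP, and 0.88 and 0.915 for Krt8 and Krt7 with Krt19 in basal libraries, each with an adjusted exact permutation p = 0.05 that missed the threshold. Krt5 with Krt15 in basal libraries turned to r = 0.133 (adjusted exact permutation p = 0.744). The cause was not tested. With the gene widths of the files as lengths, an alternative added after seeing the data, the type I to type II ratio of AP over basal was 0.99 on the log2 scale, where the exon union gave 0.63. Depth limits Krt6a most, with 24 counts in 1 AP library.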
